A study of Mus musculus with 12 samples.

Results

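Hearts of PAI-1 knockout mice (KO/HT) were compared with hearts of wildtype mice (WT/HT), with 3 arrays per genotype, which are 6 of the 12 Illumina mouse bead arrays of the series. The other 6 arrays held kidneys of the same genotypes (KO/KID and WT/KID) and enter here only as a source of the error estimate and for the test of whether a difference between hearts was also seen in kidneys. Knockout and wildtype mice alike were C57BL/6 animals bought from the Jackson laboratory and 12 months of age, with no treatment named. The study's methods name 3 mice per genotype as the source of both organs, which the sex-linked transcripts given below go against. The labels give neither the sex of the mice nor the time of day of collection, and the study describes its groups as matched for sex. The knockout is carried by all cells of the animal, and the RNA is of bulk tissue, in which fewer cells of a type and less RNA per cell cannot be told apart. Of the 45281 probes on the array, 16897 were detected (detection p-value under 0.01) in 1 or more of the 6 hearts and were kept. They name 9908 genes, of which 6441 had a single kept probe, and 2112 kept probes have no gene symbol and are called unnamed.

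PAI-1, plasminogen activator inhibitor 1, is a secreted serine protease inhibitor that blocks the tissue-type and urokinase-type activators of plasminogen. Plasmin dissolves fibrin, degrades matrix proteins and activates matrix metalloproteinases and latent growth factors, so PAI-1 acts as a brake on matrix turnover in most tissues. In the heart, loss of PAI-1 is known from mouse work for fibrosis that appears with age, and the gene of PAI-1 is itself under the control of the circadian clock. The comparison asks which transcripts differ in the heart at an age when fibrosis begins.

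All levels are log2 values of the quantile normalized signal and are listed in the order of replicates 1, 2 and 3. Differences are KO/HT minus WT/HT on the log2 scale with their standard error (SE). The p-values come from a moderated test of limma fitted over the 4 groups of arrays and were adjusted over the 16897 kept probes. The words rose and fell are kept for an adjusted p under 0.05, and for all other genes the values are given. The p-values measure only the spread between these arrays. Between 14671 and 15292 probes were detected in KO/HT arrays and between 14281 and 14678 in WT/HT arrays, and the median signal before normalization lay between 88.6 and 92.7. Precision is limited by 3 arrays per group.

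The labelled tissue was checked against its defining markers. Of 14 cardiomyocyte markers 13 were measured, none rose or fell, and their median level was 13.34, 13.57 and 13.70 in KO/HT and 13.46, 13.31 and 13.33 in WT/HT. Myl2, the ventricular myosin light chain, was detected in every heart, and Myl7, its atrial counterpart, in none of the 3 KO/HT and in 1 of the 3 WT/HT. Of the 9 atrial chamber genes measured 4 were higher and 5 lower in KO/HT, and none rose or fell.

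The knockout hearts differed among themselves more than the wildtype hearts did. The SD of a probe over the 3 hearts had a median of 0.107 in KO/HT and of 0.0783 in WT/HT, and it was the higher one in KO/HT for 65.7% of the kept probes. An SD over 0.5 was found for 232 probes in KO/HT and for 44 in WT/HT, with 17 probes in both sets, and an SD over 1 for 18 probes in KO/HT and for 4 in WT/HT. Arrays correlated across kept probes at r = 0.985 to 0.991 within KO/HT and at r = 0.994 to 0.996 within WT/HT, where probes are not independent replicates. Without KO/HT 3 the median SD of KO/HT was 0.0794, without KO/HT 1 it was 0.0885 and without KO/HT 2 it was 0.0978. These values describe 6 hearts, and no test of the spread was made.

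**Figure D1:**
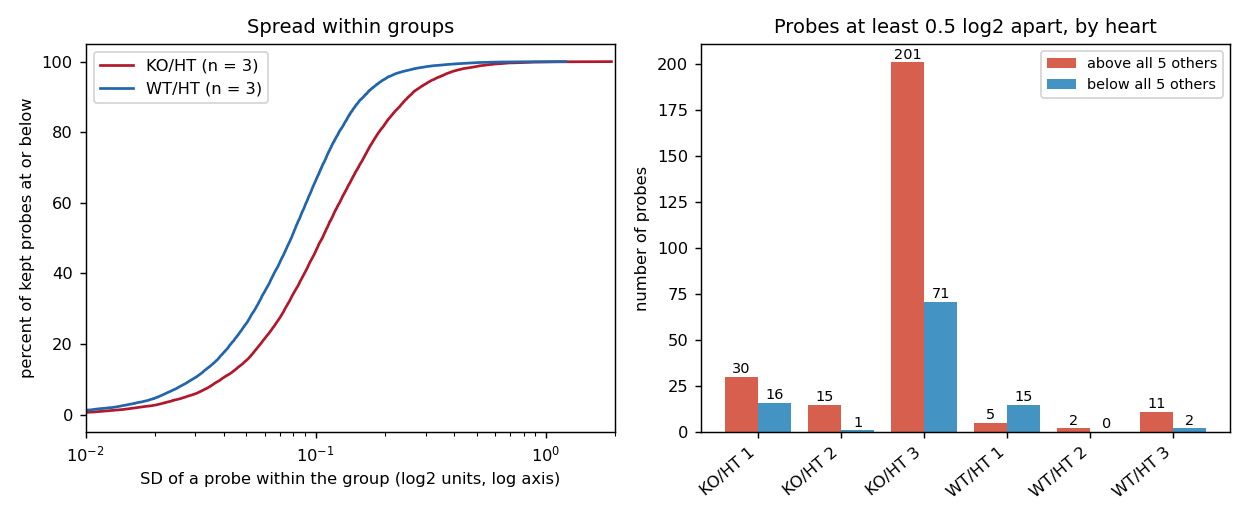
Left, cumulative percent of the 16897 kept probes by their SD within KO/HT (red) and within WT/HT (blue), in log2 units on a log axis, n = 3 hearts each; the KO/HT curve lies to the right, with medians of 0.107 and 0.0783. Right, number of probes that lie at least 0.5 log2 above (red) or below (blue) all 5 other hearts, for each heart; KO/HT 3 has 201 above and 71 below.

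The probes that spread most widely within the knockout group were mostly set by KO/HT 3. Of the 232 probes with an SD over 0.5 in KO/HT, the heart farthest from the other two was replicate 3 for 147 (63.4%), replicate 1 for 53 and replicate 2 for 32. Over all kept probes these shares were closer, at 39.6% for replicate 3, 33.2% for replicate 1 and 27.2% for replicate 2. In a principal component analysis of the 6 hearts, the component with 41.7% of the variance set KO/HT 3 (25.2) apart from the others (-8.93 to -3), and the next, with 22.9%, set KO/HT 1 apart (18.4). The 201 probes at least 0.5 above all other hearts in KO/HT 3 name 156 genes, among them 19 of the interstitial matrix and matrix processing lists and 5 of the stress and fetal heart list. For 40 of the 201 probes, KO/HT 1 and KO/HT 2 also lay above all wildtype hearts, and for 86 neither of them did.

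The named genes farthest above the other hearts in KO/HT 3 were Comp, Ccn5, Mfap4, Timp1, Nmrk2 and Hbb-b2. Comp, cartilage oligomeric matrix protein, which organizes collagen fibrils, was at 8.06, 8.004 and 11.28 in KO/HT and at 7.21, 7.44 and 7.78 in WT/HT. The knockout hearts do not overlap the wildtype hearts for this probe, but they do for its other probe, and KO/HT 3 is 3.22 above the next heart. Ccn5, a matricellular protein of the CCN family, was at 8.54, 7.72 and 10.42 in KO/HT and at 7.11, 7.46 and 8.01 in WT/HT. Mfap4, a microfibril-associated glycoprotein, was at 7.82, 7.97 and 9.83 in KO/HT and at 7.86, 7.67 and 7.94 in WT/HT. For both genes the groups overlap and KO/HT 3 is the highest heart. KO/HT 1 for Ccn5, and KO/HT 2 narrowly for Mfap4, also lie above all wildtype hearts. Timp1, the inhibitor of metalloproteinases, was at 7.94, 7.94 and 9.72 in KO/HT and at 7.41, 7.84 and 7.97 in WT/HT. Nmrk2, a muscle nicotinamide riboside kinase, was at 8.02, 7.82 and 9.71 in KO/HT and at 7.07, 8.07 and 7.99 in WT/HT. Hbb-b2, an adult beta-globin gene, was at 6.76, 6.50 and 8.23 in KO/HT and at 6.75, 6.61 and 6.52 in WT/HT, and it shares most of its sequence with other globin genes, so that its probe is uncertain. In these probes of Timp1 and Nmrk2 only KO/HT 3 lies above all wildtype hearts. For Hbb-b2 KO/HT 1 also does, by a narrow margin (6.763 against 6.748 in WT/HT 1). In the other kept probe of Timp1 all knockout hearts lie above all wildtype hearts. Sfrp1, a secreted Wnt antagonist, was at 7.89, 7.99 and 9.33 in KO/HT and at 7.65, 7.91 and 7.88 in WT/HT. Col8a1, a short-chain collagen, was at 8.49, 8.23 and 9.604 in KO/HT and at 7.99, 7.92 and 8.16 in WT/HT, so that all knockout hearts were above all wildtype hearts. None of these 8 genes passed the test, with adjusted p of 0.447 for Ccn5, 0.406 for Col8a1 and 0.497 for Comp.

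The named genes farthest below the other hearts in KO/HT 3 were Ces1d, Tbc1d10c, Ttll1 and Rab6b. Ces1d, a carboxylesterase that hydrolyzes stored lipid, was at 11.48, 11.68 and 10.25 in KO/HT and at 12.13, 11.99 and 12.08 in WT/HT. Tbc1d10c, a Rab GTPase activating protein of lymphocytes, was at 8.74, 9.04 and 7.53 in KO/HT and at 9.43, 8.86 and 9.07 in WT/HT. Ttll1, a tubulin glutamylase, was at 9.9999, 10.11 and 8.82 in KO/HT and at 10.33, 10.05 and 10.16 in WT/HT. For Ces1d all knockout hearts were below all wildtype hearts, and for Tbc1d10c and Ttll1 the groups overlap. Rab6b, a GTPase of Golgi transport, was at 7.92, 7.81 and 6.79 in KO/HT and at 8.25, 8.09 and 8.09 in WT/HT, without overlap. Acaa2, the thiolase of mitochondrial beta-oxidation, was at 12.01, 11.92 and 11.06 in KO/HT and at 12.04, 12.11 and 11.95 in WT/HT. Kcnd2, a channel subunit of the transient outward potassium current, was at 8.99, 9.07 and 8.03 in KO/HT and at 9.44, 9.04 and 8.93 in WT/HT. KO/HT 2 and KO/HT 3 were below all wildtype hearts for Acaa2, and KO/HT 3 was for Kcnd2. Of the 17 genes measured for calcium and potassium handling, 8 were lowest and 5 highest in KO/HT 3. Over all genes, 23.6% were lowest and 25.9% highest in KO/HT 3.

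KO/HT 1 stood apart by other genes. Eif2s3y, a translation factor gene of the Y chromosome, was at 9.80 in KO/HT 1, and at 6.45 and 6.49 in the other knockout hearts and 6.49, 6.48 and 6.44 in WT/HT. Xist, which coats and silences an X chromosome in female cells, was at 6.52 in KO/HT 1, and at 8.14 and 7.88 in the other knockout hearts and 7.93, 7.91 and 8.17 in WT/HT. Eif2s3y was detected in KO/HT 1 and in no other heart, and Xist was detected in the 5 others and not in KO/HT 1. By these transcripts the array labelled KO/HT 1 differs in sex from the other 5 hearts, and the calls without it are given below.

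Mvp, the major vault protein, was at 7.16 in KO/HT 1, and at 9.57 and 10.67 in the other knockout hearts and 10.13, 10.07 and 10.19 in WT/HT. Actb, the cytoplasmic beta-actin, was in its brightest probe at 11.52, 12.46 and 12.68 in KO/HT and 12.83, 12.89 and 12.79 in WT/HT, and KO/HT 1 was the lowest heart in 3 of its 5 kept probes. ND4L, a mitochondrial gene of respiratory complex I, was at 11.35, 10.46 and 9.599 in KO/HT and at 10.15, 10.28 and 10.20 in WT/HT. KO/HT 1 was the highest heart for ND4L and KO/HT 3 the lowest. Wdr92, a cochaperone, was at 8.10, 7.003 and 7.17 in KO/HT and at 7.05, 7.19 and 7.08 in WT/HT. Hspa1a, the inducible heat shock protein, was at 7.68, 6.66 and 6.82 in KO/HT and at 6.81, 6.86 and 6.82 in WT/HT. Of the 5 mesothelial markers measured, Upk3b was at 8.49, 6.91 and 7.12 in KO/HT and at 7.05, 7.87 and 6.94 in WT/HT, and Msln at 7.24, 6.61 and 6.64 in KO/HT and at 6.50, 6.70 and 6.60 in WT/HT. The list median in KO/HT 1 was 0.644 above the mean of WT/HT, and Wt1, a defining marker of these cells, had no kept probe.

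KO/HT 2 was the knockout heart nearest to the others, with 15 probes at least 0.5 above and 1 probe as far below all other hearts. Ift81, a component of the machinery that builds cilia, was at 11.24, 12.30 and 10.46 in KO/HT and at 11.03, 10.40 and 10.79 in WT/HT. Cldn5, the tight junction protein of endothelium, was at 9.95, 8.72 and 9.12 in KO/HT and at 9.61, 10.06 and 9.83 in WT/HT. Its difference of -0.57 (SE 0.23, adjusted p = 0.513) became -0.91 with an adjusted p of 0.0273 without KO/HT 1, the only knockout heart within the wildtype range.

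Against this spread, 14 probes changed in knockout hearts at an adjusted p under 0.05, which is 0.0829% of the kept probes. Of these, 5 rose (0.0296%) and 9 fell (0.0533%), and for all 14 the knockout hearts did not overlap the wildtype hearts. At an unadjusted p under 0.05 there were 1489 probes, 732 higher and 757 lower in knockout hearts. The median difference over all kept probes was -0.00127.

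The probes with the largest falls are unnamed. ILMN_2455192 was at 6.40, 6.47 and 6.46 in KO/HT, where it was not detected, and at 8.41, 8.39 and 8.24 in WT/HT. It fell by 1.91 (SE 0.06, adjusted p = 7.07e-09) and was at least 3.16-fold lower. The bound is the mean of the wildtype hearts over the lowest signal of a detected probe. ILMN_2449449 was at 6.91, 6.85 and 6.86 in KO/HT and at 8.15, 8.17 and 8.21 in WT/HT, and fell by 1.30 (SE 0.05, adjusted p = 7.15e-08). The knockout hearts lay within 0.1 of each other for both probes.

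Of the 7 named genes that fell, Taf6 had the largest difference. Taf6, which codes for a histone-fold subunit of TFIID, was at 6.82, 6.60 and 6.74 in KO/HT and at 8.05, 7.84 and 7.78 in WT/HT, and fell by 1.17 (SE 0.08, adjusted p = 3.43e-05). Its other kept probe differed by -0.06 (adjusted p = 0.808). Trim56, a ubiquitin ligase of antiviral signaling, was at 6.67, 6.69 and 6.73 in KO/HT and at 7.10, 7.22 and 7.25 in WT/HT, and fell by 0.49 (SE 0.07, adjusted p = 0.0177). The 3 knockout hearts lay within 0.3 of each other in both genes, and neither KO/HT 1 nor KO/HT 3 stood apart.

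Fbxl22, an F-box protein of the sarcomeric Z-disc, was at 7.78, 7.71 and 7.65 in KO/HT and at 8.09, 8.17 and 8.20 in WT/HT, and fell by 0.44 (SE 0.05, adjusted p = 0.00918). Herc1, a giant ubiquitin ligase, was at 7.64, 7.67 and 7.65 in KO/HT and at 7.92, 8.06 and 8.15 in WT/HT, and fell by 0.39 (SE 0.06, adjusted p = 0.0373). The 2 other kept probes of Herc1 differed by 0.03 and -0.06 (adjusted p = 0.928 and 0.84). In RefSeq, Herc1 and Fbxl22 overlap at their ends on chromosome 9, so that the transcript measured by this Herc1 probe is uncertain, and neither gene's probe was detected in any kidney.

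Nipsnap2, Spon2 and Whrn fell as well. Nipsnap2, a mitochondrial matrix protein, was at 9.75, 9.87 and 9.39 in KO/HT and at 10.46, 10.52 and 10.46 in WT/HT, and fell by 0.81 (SE 0.10, adjusted p = 0.00952). Spon2, the secreted matrix protein spondin 2, was at 9.005, 8.55 and 8.94 in KO/HT and at 9.49, 9.85 and 9.64 in WT/HT, and fell by 0.83 (SE 0.11, adjusted p = 0.0164). The knockout hearts spread more widely here, with KO/HT 2 the lowest for Spon2 and KO/HT 3 for Nipsnap2. Whrn, the scaffold protein whirlin, was at 8.51, 8.75 and 8.19 in KO/HT and at 9.29, 9.38 and 9.37 in WT/HT, and fell by 0.87 (SE 0.13, adjusted p = 0.0373).

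Of the 5 probes that rose, Phlda1 had the largest difference. Phlda1, a pleckstrin homology-like protein induced as an immediate early gene, was at 10.12, 9.82 and 10.36 in KO/HT and at 9.15, 9.52 and 9.03 in WT/HT, and rose by 0.87 (SE 0.14, adjusted p = 0.0373). Clip1, a protein that tracks the growing ends of microtubules, was at 9.08, 9.003 and 9.25 in KO/HT and at 8.34, 8.61 and 8.49 in WT/HT, and rose by 0.63 (SE 0.08, adjusted p = 0.00918). A further probe of Clip1 differed by 0.57 (adjusted p = 0.0944) and its brightest probe by 0.12 (adjusted p = 0.785), so that the probes disagree on the size.

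Nmral1, a sensor of the NADPH state, was at 7.79, 7.50 and 7.72 in KO/HT and at 7.18, 7.20 and 7.10 in WT/HT, and rose by 0.51 (SE 0.07, adjusted p = 0.0206). Strip2, a subunit of the STRIPAK phosphatase and kinase complex, was at 9.43, 9.35 and 9.47 in KO/HT and at 9.06, 9.03 and 9.06 in WT/HT, and rose by 0.37 (SE 0.06, adjusted p = 0.0373), while its other kept probe differed by 0.02 (adjusted p = 0.944). For Phlda1 the gap between KO/HT 2 at 9.82 and WT/HT 2 at 9.52 was narrower than the range within either group, while for Strip2 both groups were tight. The fifth probe that rose is of the clock gene Ciart.

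**Figure D2:**
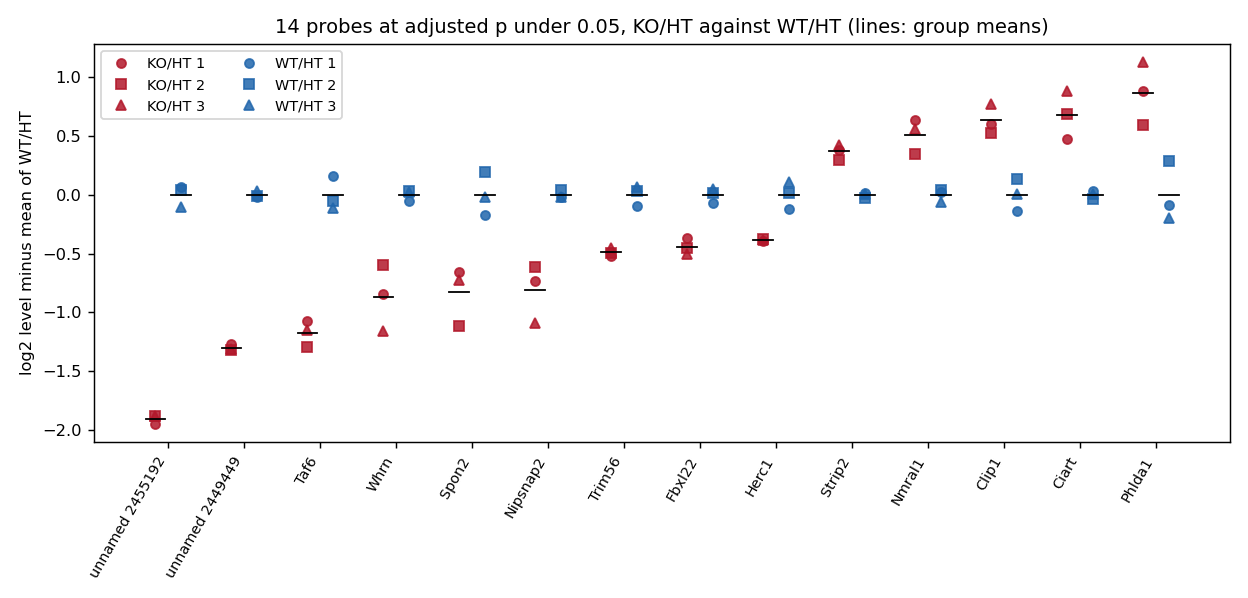
Levels of the 14 probes at an adjusted p under 0.05 in each heart, as log2 level minus the mean of WT/HT, with KO/HT in red on the left and WT/HT in blue on the right of each gene; circles, squares and triangles are replicates 1, 2 and 3, and lines are group means (n = 3). No knockout heart overlaps a wildtype heart, and the knockout hearts spread from under 0.1 for the unnamed probes to over 0.5 for Whrn and Phlda1.

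The calls depended to different degrees on single hearts. Taf6 and both unnamed probes passed without any 1 heart. Without WT/HT 3, no other probe of the 14 passed, with adjusted p of 0.06 for Ciart, Clip1, Fbxl22 and Nipsnap2, 0.0979 for Spon2, 0.143 for Trim56, 0.161 for Nmral1, 0.184 for Whrn, Herc1 and Strip2 and 0.2 for Phlda1. Without WT/HT 2, Nipsnap2 (0.0584), Spon2 (0.0651), Nmral1 (0.0651), Trim56 (0.0872), Whrn (0.151), Herc1 (0.151) and Strip2 (0.154) did not pass. Without WT/HT 1 this was so for Nmral1 (0.0619), Whrn (0.0727), Strip2 (0.0895) and Phlda1 (0.117), and without KO/HT 3 for Phlda1 (0.0572), Herc1 (0.0614) and Strip2 (0.0772). Without KO/HT 1, all hearts left carried Xist, and Whrn (0.0509), Herc1 (0.0608), Strip2 (0.0647) and Phlda1 (0.0653) did not pass. All 14 passed without KO/HT 2. The number of probes that passed was 35 without KO/HT 1, 138 without KO/HT 2, 25 without KO/HT 3 and 4 without WT/HT 3, against 14 with all hearts. Genes described in this text as passing only without a knockout heart belong to these larger counts. They did not pass with any heart left out other than those named. When the kidneys were left out of the fit, so that only 6 arrays set the error, 3 probes passed, Taf6 and both unnamed probes, and the other 11 had adjusted p of 0.277 to 0.542.

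By position, 5 of the 12 named genes that changed lie on chromosome 5 (41.7%), which holds 6.39% of the kept genes. They are Spon2, Clip1, Nipsnap2, Trim56 and Taf6, in the order of the chromosome, and none of them are direct neighbours. Between Spon2 and Clip1 lie 667 protein-coding genes. The other gaps are smaller, with 54 between Clip1 and Nipsnap2, 87 between Nipsnap2 and Trim56 and 44 between Trim56 and Taf6. The share is a description of 12 genes, with no test.

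In the kidneys of the same genotypes, the unnamed probes and Taf6 and Trim56 fell as well. Taf6 averaged 6.58 ± 0.05 in KO/KID and 7.51 ± 0.10 in WT/KID (SD, n = 3 each), and fell by 0.93 (adjusted p = 0.000369). This Taf6 probe was not detected in any KO/KID array, so the size of its fall there is limited by background. Trim56 averaged 6.73 ± 0.06 in KO/KID and 7.26 ± 0.11 in WT/KID (SD, n = 3 each), and fell by 0.53 (adjusted p = 0.00389). The other 10 probes that changed in hearts did not pass in kidneys. Whether the heart difference itself differed from that of kidneys was tested by the interaction of genotype and organ, which 12 probes passed (0.071%). Of the 14, only Ciart (0.80, SE 0.12, adjusted p = 0.0384), Fbxl22 (-0.48, SE 0.08, adjusted p = 0.0493) and ILMN_2455192 (-0.67, SE 0.09, adjusted p = 0.0167) were among them. These probes of Ciart and Fbxl22 were not detected in any kidney, and ILMN_2455192 was not detected in any knockout heart or knockout kidney. Eif2s3y was detected in all 6 kidneys and in 1 heart, and Xist in 5 hearts and no kidney, so that organ and sex split the arrays nearly alike. The study's methods trace hearts and kidneys to 3 mice per genotype, which these transcripts go against, and the part of sex in the interactions was not tested.

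Most genes of the circadian clock were higher in knockout hearts, and the activators Arntl and Clock were lower. The clock runs as a loop in which the activators CLOCK and BMAL1 (gene Arntl) bind E-boxes and switch on their own repressors of the PER, CRY and CIART families, as well as the D-box factors DBP and TEF, which carry the rhythm to output genes. Of 22 names in the list, which holds Arntl also under its newer name, 14 were measured, 12 were higher and 2 lower in KO/HT, and the median difference was 0.222, beside -0.00272 over all 9908 genes. In 5 genes all knockout hearts were above all wildtype hearts, against 5.47% of all genes, and in none were they all below (5% of all genes). At an unadjusted p under 0.05, 5 members were higher, against 4.53% of all genes, and 1 was lower, against 4.48%. The list median stayed between 0.154 without WT/HT 3 and 0.324 without WT/HT 1 when any 1 heart was left out, and was 0.075 with no filter on detection.

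Ciart, a repressor that binds to BMAL1, was at 7.24, 7.45 and 7.65 in KO/HT and at 6.80, 6.73 and 6.78 in WT/HT in the probe that passed, and rose by 0.68 (SE 0.08, adjusted p = 0.00918). In its brightest probe it was at 7.68, 8.18 and 8.52 in KO/HT and at 7.11, 7.29 and 6.88 in WT/HT, a difference of 1.03 (SE 0.18, adjusted p = 0.0605), and the third probe differed by 0.99 (adjusted p = 0.0605). The brightest probe passed without KO/HT 1 (1.28, adjusted p = 0.00342) and without KO/HT 2 (1.01, adjusted p = 0.0499). In all 3 probes the groups were apart, and KO/HT 3 was the highest heart.

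Per1 and Per2 code for the repressors of the loop's negative limb. Per1 was at 9.07, 8.80 and 8.97 in KO/HT and at 8.34, 8.41 and 8.24 in WT/HT, a difference of 0.62 (SE 0.11, adjusted p = 0.0656), which passed without KO/HT 2 (0.69, adjusted p = 0.0256). Per2 was at 7.86, 8.59 and 7.99 in KO/HT and at 7.43, 7.52 and 7.46 in WT/HT, a difference of 0.68 (SE 0.17, adjusted p = 0.218). The second probes of Per1 and of Per2 differed by 0.55 and 0.62, and in all 4 probes the groups did not overlap.

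Usp2, a deubiquitinase that acts on clock proteins, was at 11.25, 11.64 and 11.63 in KO/HT and at 11.24, 11.06 and 11.06 in WT/HT, a difference of 0.39 (SE 0.11, adjusted p = 0.317). Dbp was at 11.35, 12.28 and 12.17 in KO/HT and at 11.42, 11.25 and 10.75 in WT/HT, a difference of 0.79 (SE 0.33, adjusted p = 0.52). KO/HT 1 lay at the wildtype level for Dbp and Usp2 and the other knockout hearts above it. Arntl and Tef were named after their values were seen. Tef was at 9.22, 9.37 and 9.29 in KO/HT and at 9.21, 8.98 and 8.50 in WT/HT (0.40, SE 0.20, adjusted p = 0.595), and Arntl, the activator, was at 7.30, 6.71 and 6.87 in KO/HT and at 7.30, 7.28 and 7.70 in WT/HT (-0.47, SE 0.15, adjusted p = 0.387). WT/HT 3 was the lowest heart for Dbp and Tef and the highest for Arntl, so that the wildtype hearts differ among themselves in the same genes.

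**Figure D3:**
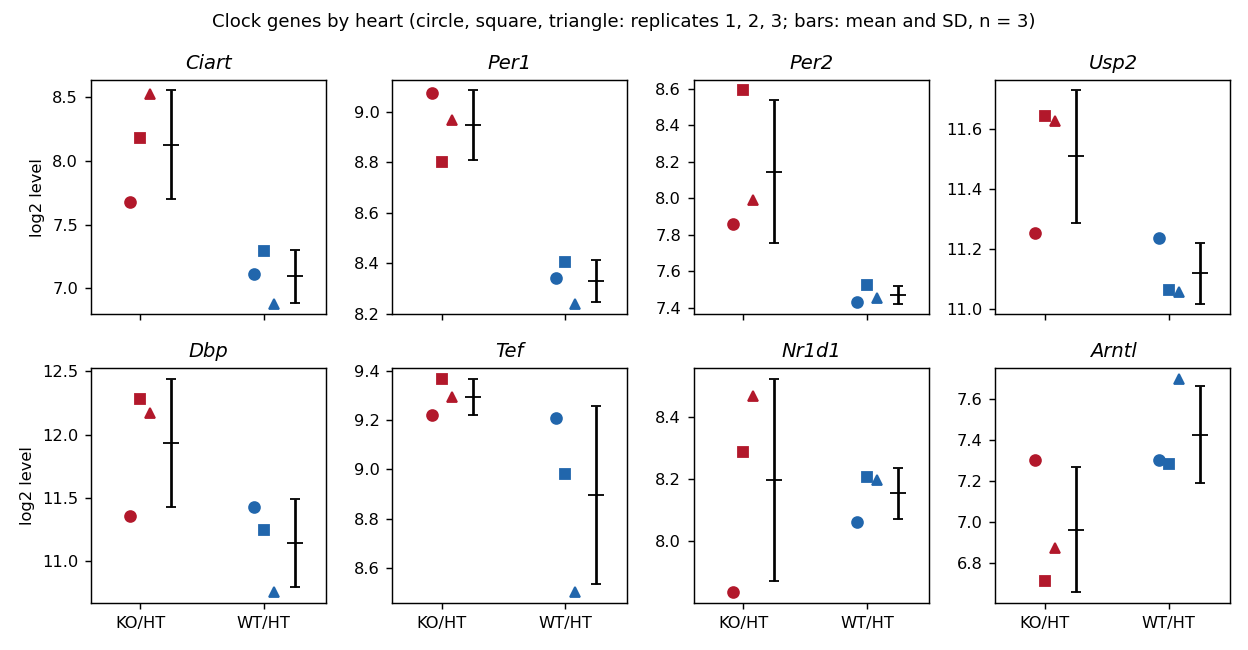
Log2 levels of 8 clock genes, KO/HT in red on the left and WT/HT in blue on the right; circles, squares and triangles are replicates 1, 2 and 3, and bars are the mean and SD (n = 3). The groups are clearly apart for Ciart, Per1 and Per2, nearly touch for Usp2 (11.25 against 11.24) and Tef (9.22 against 9.21), and overlap for Dbp, Nr1d1 and Arntl.

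The promoters of these genes were searched for the E-box (CACGTG, which reads the same on both strands) and the D-box (TTATGTAA, both strands) in the window of 250 bases before to 50 bases after each start in RefSeq (GRCm38.p6). Of the 14 measured clock genes 12 had an entry. An E-box was found for Ciart, Per1 and Tef, 3 of 12, against 8.09% of 27025 genes and 7.15% of 32851 promoters, and a D-box for Per3 alone, against 1.11% of genes. Ciart, the clock gene with the largest difference, has 3 E-boxes 116, 58 and 44 bases before its start. Per2 had no entry, and Usp2, whose groups are also apart, had no E-box in this window. The stretches that hold the E-boxes are shown because they carry the letters searched for, each 5′ to 3′ on the gene's strand, with the E-box in capitals. They are Ciart at chr3:95882245-95882366 on the minus strand, Per1 at chr11:69098761-69098810 on the plus strand and the 2 starts of Tef at chr15:81802524-81802573 and chr15:81811254-81811303 on the plus strand.
Ciart: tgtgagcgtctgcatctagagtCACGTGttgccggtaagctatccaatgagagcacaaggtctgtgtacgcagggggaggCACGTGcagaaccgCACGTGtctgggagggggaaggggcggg
Per1: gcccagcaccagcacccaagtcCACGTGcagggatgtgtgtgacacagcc
Tef upstream start: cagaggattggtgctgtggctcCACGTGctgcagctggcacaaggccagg
Tef downstream start: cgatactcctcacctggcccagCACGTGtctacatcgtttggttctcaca

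These letters are a description of the sequence and not of binding in these hearts.

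The interstitial matrix list, the collagens, proteoglycans and glycoproteins that fibroblasts lay down, was carried by KO/HT 3. Of 28 genes 23 were measured, with 1 that fell, Spon2, and none that rose. The median difference was 0.193, but per heart the median shift against the WT/HT mean was 0.062, 0.0044 and 0.594 in KO/HT, and 21 of the 23 genes had their highest level in KO/HT 3, against 25.9% of all genes. Without KO/HT 3 the median difference was 0.0272, and without KO/HT 2 it was 0.306. The median SD of its members was 0.426 in KO/HT and 0.0963 in WT/HT, and 22 of 23 had the higher SD in KO/HT.

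Col1a1, a chain of the main fibrillar collagen, was at 7.99, 7.75 and 9.38 in KO/HT and at 8.08, 7.96 and 7.91 in WT/HT. Bgn, the small proteoglycan biglycan, was at 12.05, 12.16 and 13.46 in KO/HT and at 11.99, 12.20 and 12.16 in WT/HT. Ccn2, a matricellular protein induced by transforming growth factor beta, was at 11.77, 11.72 and 12.63 in KO/HT and at 11.42, 11.67 and 11.58 in WT/HT. In all 3 genes KO/HT 3 was the highest heart, and for Col1a1 and Bgn the other knockout hearts were within or just beside the wildtype range.

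Some matrix genes were shifted in all knockout hearts. Fbln2, a glycoprotein of elastic fibers, was at 9.77, 9.56 and 10.38 in KO/HT and at 9.03, 9.31 and 9.44 in WT/HT, a difference of 0.65 (SE 0.17, adjusted p = 0.228), which passed without KO/HT 2 (0.82, adjusted p = 0.04). Mfap5, a microfibril protein, was at 8.55, 8.68 and 9.76 in KO/HT and at 8.11, 8.21 and 8.33 in WT/HT, a difference of 0.78 (SE 0.23, adjusted p = 0.317). Lama2, a laminin chain of the muscle basement membrane that was named after its values were seen, was at 8.22, 8.002 and 8.04 in KO/HT and at 7.69, 7.59 and 7.75 in WT/HT, a difference of 0.41 (SE 0.07, adjusted p = 0.0605), and passed without KO/HT 2 (0.45, adjusted p = 0.0249). Lama2 was not highest in KO/HT 3, and the 3 knockout hearts were within 0.3 of each other.

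Of the matrix processing and turnover list, which holds the metalloproteinases, their inhibitors and the enzymes that cross-link collagen, 21 of 27 genes were measured and none rose or fell. The median difference was 0.0973, and the median shift was 0.0308, -0.0362 and 0.382 in KO/HT, with 16 of 21 genes highest in KO/HT 3. The median difference was 0.0142 without KO/HT 3, 0.232 without KO/HT 1, 0.227 without KO/HT 2 and 0.166 without WT/HT 3. Ctsk, the collagen-cleaving protease cathepsin K, was at 7.73, 7.67 and 8.15 in KO/HT and at 7.48, 7.24 and 7.35 in WT/HT, a difference of 0.49 (SE 0.11, adjusted p = 0.147), and passed without KO/HT 2 (0.58, adjusted p = 0.0354). It was the only member of the 21 whose knockout hearts all lay above the wildtype hearts, against 5.47% of all genes. Timp4, the inhibitor most abundant in heart, was at 8.15, 7.94 and 7.78 in KO/HT and at 7.96, 8.65 and 8.44 in WT/HT, a difference of -0.39 (SE 0.14, adjusted p = 0.448), opposite in sign to that of Timp1 (0.79, SE 0.36, adjusted p = 0.563).

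Beside the matrix lists stand the markers of fibroblasts. All 13 were measured, their median difference was 0.0799, and -0.0384 without KO/HT 3 and 0.132 without WT/HT 2. The median shift was 0.0015, -0.045 and 0.251 in KO/HT, 7 of 13 were highest in KO/HT 3, and Col1a1, Dcn, Lum and Mfap5 are members of both lists. Pdgfra, a defining receptor of fibroblasts, was at 9.16, 8.89 and 9.28 in KO/HT and at 9.01, 9.10 and 8.98 in WT/HT. Pi16, a marker of adventitial fibroblasts, was at 9.93, 9.74 and 10.68 in KO/HT and at 9.25, 9.29 and 9.51 in WT/HT, a difference of 0.77 (SE 0.18, adjusted p = 0.198), and passed without KO/HT 2 (0.96, adjusted p = 0.0328). Gsn, the actin-severing gelsolin, was at 8.62, 9.11 and 9.05 in KO/HT and at 9.40, 9.49 and 9.50 in WT/HT, a difference of -0.53 (SE 0.11, adjusted p = 0.132), and passed without KO/HT 2 (-0.62, adjusted p = 0.0333). The markers thus did not move in 1 direction, and the part of fibroblast number in the matrix values was not tested.

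**Figure D4:**
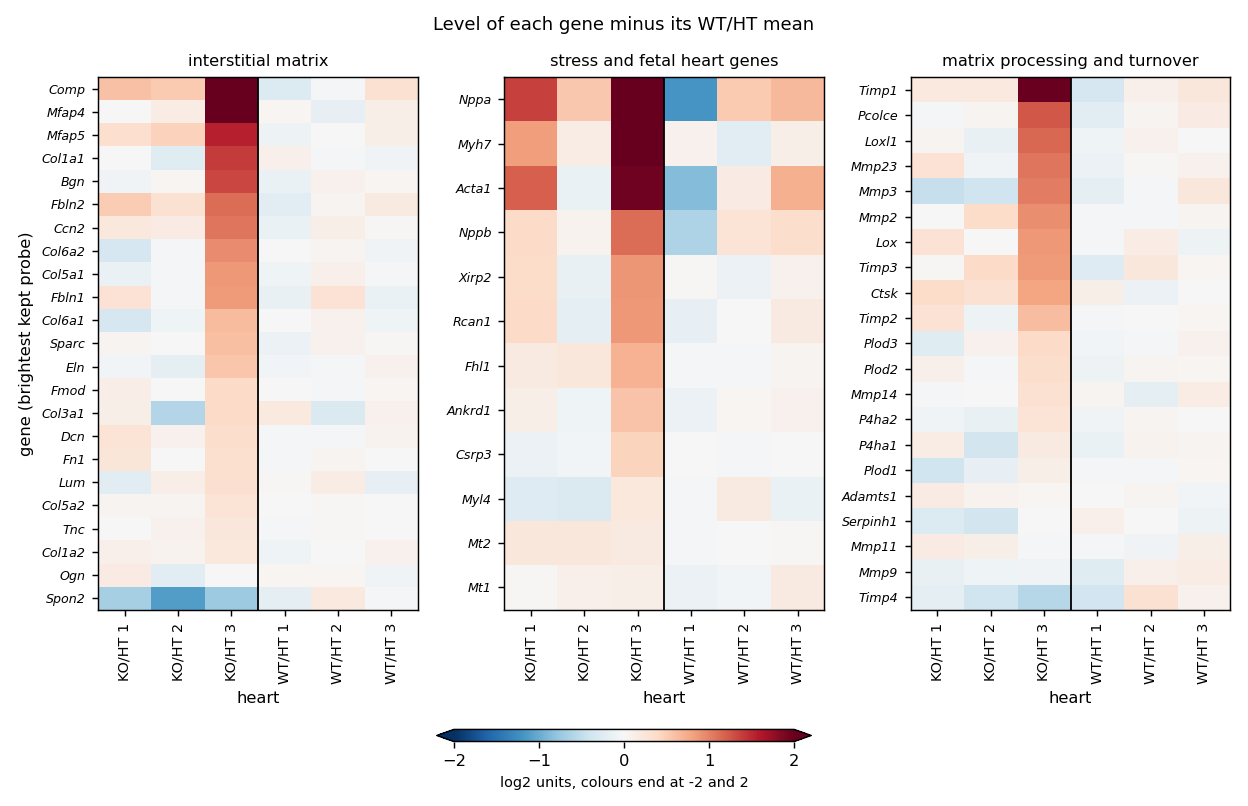
Log2 level of each gene minus its mean in WT/HT, in the 3 KO/HT and 3 WT/HT arrays (columns), for the lists of interstitial matrix, stress and fetal heart, and matrix processing genes (rows); red is higher and blue lower, and the colors end at -2 and 2. The column of KO/HT 3 is red in nearly all genes, with Comp at 11.28 against a WT/HT mean of 7.48, while Spon2 is blue in all 3 knockout hearts.

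The stress and fetal heart genes, which the adult myocardium turns on under load, had the largest list median, 0.362 over 12 of 16 genes, with none that rose or fell. Per heart the median shift was 0.298, 0.0087 and 0.78 in KO/HT, and 10 of 12 genes were highest in KO/HT 3. Myh7, the fetal myosin heavy chain, was at 8.70, 8.01 and 10.03 in KO/HT and at 7.94, 7.65 and 7.98 in WT/HT, a difference of 1.05 (SE 0.35, adjusted p = 0.406). Myh7 passed only without KO/HT 2 (1.51, adjusted p = 0.0333), the knockout heart nearest to the wildtype hearts. The groups did not overlap in any of its 3 probes.

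Nppa, the atrial natriuretic peptide, was at 13.87, 13.04 and 14.74 in KO/HT and at 11.33, 13.03 and 13.16 in WT/HT, a difference of 1.38 (SE 0.44, adjusted p = 0.39). Acta1, the skeletal alpha-actin, was at 13.16, 11.83 and 13.92 in KO/HT and at 11.10, 12.13 and 12.68 in WT/HT. Both genes spread widely in both groups, since WT/HT 1 was low as well as KO/HT 3 high, and the groups overlap. Without WT/HT 1 the median of the list was 0.244, and without KO/HT 3 it was 0.158. Fhl1, a LIM protein of the stretch response, was at 11.16, 11.20 and 11.67 in KO/HT and at 10.93, 10.96 and 11.03 in WT/HT, a difference of 0.37 (SE 0.12, adjusted p = 0.409), and was 1 of the 3 members of 12 with all knockout hearts above, with Myh7 and the metallothionein Mt2, against 5.47% of all genes. Ankrd1, a cardiac ankyrin repeat protein of the stretch response, was at 13.71, 13.51 and 14.17 in KO/HT and at 13.48, 13.63 and 13.68 in WT/HT, a difference of 0.20 (SE 0.14, adjusted p = 0.73). Its other probe was at 13.18, 12.32 and 13.45 in KO/HT and at 12.02, 12.29 and 12.36 in WT/HT, a difference of 0.76 (SE 0.21, adjusted p = 0.289). The groups overlap in both probes, with KO/HT 2 among the wildtype hearts.

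The genes of fatty acid use, which the heart burns as its main fuel, were lower in most members but by small amounts. Of 30 genes 27 were measured, 25 were lower and 2 higher in KO/HT, the median difference was -0.116, and none passed the test. All knockout hearts lay below all wildtype hearts for 6 members, against 5% of all genes, and above for none, and 7 were lower at an unadjusted p under 0.05, against 4.48% of all genes. The median shift was -0.0314, -0.152 and -0.309 in KO/HT, and 16 of 27 genes were lowest in KO/HT 3, against 23.6% of all genes. Without KO/HT 3 the median was -0.0831, without WT/HT 3 it was -0.0711, and without quantile normalization it was -0.0514.

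Acot1, the thioesterase induced by PPAR-alpha, was at 9.72, 9.27 and 8.59 in KO/HT and at 9.75, 10.11 and 10.45 in WT/HT, a difference of -0.91 (SE 0.24, adjusted p = 0.245). Ces1d, with the values given above, differed by -0.93 (SE 0.27, adjusted p = 0.3). Plin5, which coats lipid droplets at mitochondria, was at 10.56, 10.54 and 10.63 in KO/HT and at 10.73, 10.82 and 11.03 in WT/HT, a difference of -0.28 (SE 0.08, adjusted p = 0.317). For Plin5 the knockout hearts were alike, whereas Acot1 was lowest in KO/HT 3 and near the wildtype level in KO/HT 1. Pdk4, the kinase that shuts off glucose oxidation, was at 11.57, 10.76 and 11.24 in KO/HT and at 10.21, 12.22 and 12.42 in WT/HT, a wider spread in wildtype than in knockout hearts.

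Among vessel genes, Flt1 and Acta2 were lower in all knockout hearts, while the marker lists had medians near 0. Flt1, a receptor of vascular endothelial growth factor, was at 9.99, 10.21 and 10.23 in KO/HT and at 10.77, 10.52 and 10.71 in WT/HT, a difference of -0.52 (SE 0.09, adjusted p = 0.0605), and passed without KO/HT 2 (-0.55, adjusted p = 0.0354). The 12 endothelial markers measured had a median difference of -0.0637, which was -0.0261 without KO/HT 1, -0.0989 without KO/HT 2, -0.0964 without KO/HT 3 and 0.023 without quantile normalization, and Pecam1, a defining marker, was at 9.26, 9.12 and 9.36 in KO/HT and at 9.30, 9.21 and 9.38 in WT/HT. Of these 12 markers only Flt1 had groups that do not overlap, with all knockout hearts below, against 5% of all genes below and 5.47% above.

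Acta2, the smooth muscle alpha-actin, was at 11.64, 12.27 and 11.87 in KO/HT and at 12.57, 12.64 and 12.97 in WT/HT, a difference of -0.80 (SE 0.22, adjusted p = 0.262). All 4 kept probes of Acta2 had groups that do not overlap, with differences of -0.67 to -0.87 and adjusted p of 0.103 to 0.262. Mylk, the myosin light chain kinase, was at 8.996, 9.34 and 8.93 in KO/HT and at 9.61, 9.55 and 9.28 in WT/HT, a difference of -0.39 (SE 0.11, adjusted p = 0.317), and passed without KO/HT 2 (-0.51, adjusted p = 0.0487). The 12 smooth muscle and pericyte markers measured had a median of -0.0645, with a shift of -0.118, -0.033 and -0.175 in KO/HT, and 8 were lower and 4 higher. The median was 0.00803 without KO/HT 1, -0.119 without KO/HT 2 and -0.00571 without KO/HT 3.

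Genes of antigen presentation were lower in knockout hearts, though the groups overlapped. All 8 genes of MHC class II were lower in KO/HT with a median difference of -0.322, and for none were the groups apart. The median difference was -0.207 without KO/HT 1 and -0.222 without WT/HT 1. The median shift was -0.543, -0.152 and -0.194 in KO/HT and 0.27, -0.24 and -0.00275 in WT/HT. WT/HT 1 was thus the high heart, and WT/HT 2 lay below KO/HT 2 and KO/HT 3. H2-Ab1, a beta chain, was at 9.61, 9.94 and 9.90 in KO/HT and at 10.60, 9.76 and 10.29 in WT/HT, a difference of -0.40 (SE 0.18, adjusted p = 0.571). WT/HT 2 lay among the knockout hearts for H2-Ab1, and the median SD of the list was 0.194 in KO/HT and 0.262 in WT/HT. The macrophage list, with 14 of 15 markers measured, had a median of -0.114 and was also wider in wildtype hearts (median SD 0.195 in KO/HT and 0.34 in WT/HT), with WT/HT 3 the high one at a median shift of 0.328. Its median was 0.0559 without WT/HT 3, -0.227 without WT/HT 1, -0.0753 without KO/HT 1 and -0.196 without KO/HT 3. Of the 14 interferon-stimulated genes measured, Trim56 fell and the median was -0.0987, and -0.0371 without quantile normalization.

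Il33, an alarmin cytokine of stromal cells, was at 7.74, 8.08 and 8.12 in KO/HT and at 7.42, 7.23 and 7.03 in WT/HT, a difference of 0.75 (SE 0.13, adjusted p = 0.0605), and passed without KO/HT 1 (0.88, adjusted p = 0.0196). Serpina3n, an acute phase protease inhibitor, was at 8.64, 8.51 and 9.77 in KO/HT and at 7.41, 8.17 and 8.33 in WT/HT, a difference of 1.00 (SE 0.28, adjusted p = 0.3). Fxyd6, a regulator of the sodium pump, was at 11.32, 11.47 and 11.97 in KO/HT and at 10.79, 10.85 and 10.80 in WT/HT, a difference of 0.78 (SE 0.14, adjusted p = 0.0943), and passed without KO/HT 1 (0.90, adjusted p = 0.0324) and without KO/HT 2 (0.83, adjusted p = 0.0425). The groups were apart in all 3 genes, and the wildtype hearts lay within 0.1 of each other for Fxyd6.

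Of the plasminogen activation list, the proteins that PAI-1 acts on or beside, 9 of 14 genes were measured and none rose or fell. Plat, the tissue-type activator, was at 8.52, 8.62 and 8.87 in KO/HT and at 8.47, 8.92 and 8.76 in WT/HT, and Plau, the urokinase-type activator, was at 6.69, 6.80 and 6.92 in KO/HT and at 6.82, 6.76 and 6.87 in WT/HT, so that the groups overlap for both targets of the inhibitor. Vtn, vitronectin, which holds PAI-1 in its active form, was at 8.89, 9.56 and 9.20 in KO/HT and at 9.20, 9.26 and 9.16 in WT/HT. The 2 of 9 members with all knockout hearts above, against 5.47% of all genes, were Plgrkt, a plasminogen receptor, with a difference of 0.18 (SE 0.06, adjusted p = 0.41), and S100a10, which binds plasminogen at the cell surface, with 0.25 (SE 0.09, adjusted p = 0.449). The transforming growth factor beta list, with 18 of 22 genes measured, had a median of 0.068, which was -0.041 without KO/HT 3, 0.121 without KO/HT 1, 0.0167 without WT/HT 1, 0.021 without WT/HT 2 and 0.109 without WT/HT 3. Tgfb3, a ligand, was at 7.90, 7.83 and 8.47 in KO/HT and at 7.47, 7.86 and 7.77 in WT/HT (0.37, SE 0.14, adjusted p = 0.499).

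Among immediate early genes, which cells induce within minutes of a stimulus, Phlda1 rose and the 16 others measured did not pass. Egr1, a zinc finger transcription factor, was at 10.70, 9.98 and 10.54 in KO/HT and at 10.85, 9.41 and 9.66 in WT/HT, a difference of 0.43 (SE 0.33, adjusted p = 0.76). WT/HT 1 was the highest heart for Egr1 and for Fos, so that the wildtype spread exceeds the difference.

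**Figure D5:**
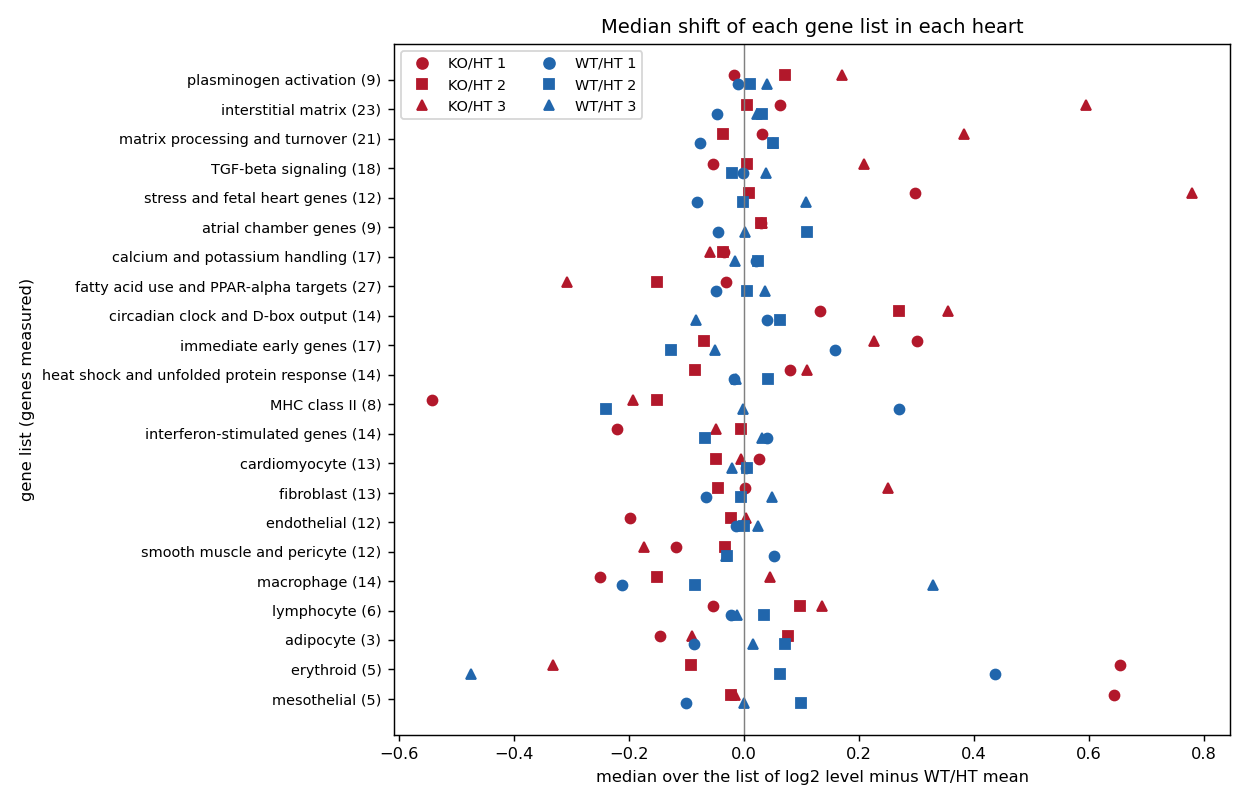
Median over the genes of each list of the log2 level minus the mean of WT/HT, for each KO/HT array (red) and each WT/HT array (blue); circles, squares and triangles are replicates 1, 2 and 3, and the number of genes measured stands in brackets. KO/HT 3 lies far to the right for the matrix and stress lists (0.594 and 0.78), and the clock list has all 3 knockout hearts to the right of the wildtype hearts (0.132 to 0.354).

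Of the remaining genes with the largest differences, Angptl7, a secreted angiopoietin-like protein, was at 7.30, 7.23 and 8.002 in KO/HT and at 6.80, 6.66 and 6.62 in WT/HT, a difference of 0.81 (SE 0.24, adjusted p = 0.326). Amy1, the salivary type amylase, was at 7.48, 7.63 and 7.06 in KO/HT and at 7.74, 8.25 and 8.13 in WT/HT, a difference of -0.65 (SE 0.14, adjusted p = 0.154). 2610035D17Rik, a gene of unknown role, was at 7.61, 7.61 and 6.67 in KO/HT and at 8.05, 7.78 and 8.05 in WT/HT, a difference of -0.66 (SE 0.21, adjusted p = 0.39). The groups were apart in all 3 genes, with KO/HT 3 the farthest from the wildtype hearts. Rab6b, with the values given above, differed by -0.64 (SE 0.22, adjusted p = 0.411).

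By the study's own criterion, which asks for a 1.5-fold difference at an unadjusted p under 0.05, 75 probes differed, 46 higher in KO/HT (0.272%) and 29 lower (0.172%), which name 54 genes and leave 9 probes unnamed. KO/HT 3 was the knockout heart farthest from the wildtype mean for 35 of the 46 higher and 17 of the 29 lower probes. The groups did not overlap for 27 of the higher and 23 of the lower probes. Without quantile normalization the split was 54 higher to 17 lower. The count was 154 without KO/HT 2. Of the 17 genes the study lists for this comparison, 15 had a kept probe, all 15 met the criterion in at least 1 probe, 12 had a probe whose groups do not overlap and 6 had a probe at an adjusted p under 0.05. The study chose this list on these samples, so the counts are not independent evidence of its direction.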

How the data were processed

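RNA of 6 hearts was measured with that of 6 kidneys on Illumina mouse bead arrays. The deposited table holds for each probe a summary intensity on a linear scale, exported by the authors without normalization between arrays, and the deposited detection p-value of that probe. How the detection p-value was computed is not stated. The authors' own normalized intensity values were deposited as well, for which lumi (no version) and quantile normalization are named, and after log2 they served as an alternative. Their median was 7.31 in every array, and they correlated with the log2 signal at r = 0.982 to 0.999.

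The deposited signals were quantile normalized over the 12 arrays and taken to log2, without correcting the background again. Probes stayed in if detected at p under 0.01 in 1 or more hearts. The platform annotation gives 1 symbol for 14778 of these and several for 7, which stay unnamed. A gene was given its kept probe with the highest mean over the 6 hearts. Work was done in R 4.3.3 with limma 3.58.1 and the data.table package (version 1.17.8). A mean per group was fitted to all 12 arrays (8 residual and 4.25 prior degrees of freedom), with two-sided moderated tests and Benjamini-Hochberg adjustment. The fit was tested on simulated data.

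The text draws its named genes from those at an adjusted p under 0.05, those the study lists, the 10 largest differences in each direction among genes at an unadjusted p under 0.05 whose groups do not overlap, up to 4 members per list with the smallest p, and, for each knockout heart, the 8 farthest above and 4 farthest below all other hearts. Not all of them are shown. Other list members shown for their role, and Lama2, Arntl and Tef, fall outside this rule. The comparison, the lists and the named genes were chosen with earlier results of these data known. Alternatives were neqc (offset 16), no quantile normalization, the authors' values, other filters on detection, only the hearts in the fit, the replicate number as a block, array weights, trend and robust moderation, the mean over the probes of a gene, and each heart left out. Histology, protein and PCR measurements are not analysed here, and the level of the deleted gene is not reported here.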

Additional observations from a re-analysis of the deposited data

Results flagged for a closer look

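The difference between genotypes differed between hearts and kidneys, by the interaction test of limma, for 12 probes. The interaction is the knockout minus wildtype difference in hearts minus that in kidneys, on the log2 scale. All 3 kept probes of Ciart were among them, with interactions of 1.67, 1.62 and 0.80 (adjusted p = 0.0384 each). In its brightest probe Ciart averaged 8.13 ± 0.43 in KO/HT and 7.09 ± 0.21 in WT/HT, and 6.69 ± 0.16 in KO/KID and 7.33 ± 0.12 in WT/KID (SD, n = 3 each). The probe with an interaction of 0.80 was not detected in any kidney. Fbxl22 had an interaction of -0.48 (adjusted p = 0.0493) and was not detected in kidneys either. Hsd3b2, a steroid dehydrogenase, had an interaction of 1.11 (adjusted p = 0.0455), with 9.94 ± 0.17 in KO/HT and 9.89 ± 0.12 in WT/HT, and 10.46 ± 0.19 in KO/KID and 11.51 ± 0.20 in WT/KID (SD, n = 3 each), so that the genotypes differed in kidneys and not beyond the spread in hearts.

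The other 7 probes are unnamed. Of these, ILMN_2455192 had an interaction of -0.67 (adjusted p = 0.0167), and fell in both organs. This probe was not detected in any knockout heart or knockout kidney, and averaged 8.35 in WT/HT and 7.77 in WT/KID. With both knockout groups at background, its interaction cannot tell a larger fall in hearts from a higher wildtype level there. The interaction was 1.20 for ILMN_1218079 (adjusted p = 0.00629), 1.81 for ILMN_1252983 (adjusted p = 0.0167), 1.52 for ILMN_1249362 (adjusted p = 0.0304) and 0.88 for ILMN_1231568 (adjusted p = 0.0455), all with a lower level in KO/KID than in WT/KID. It was -1.21 for ILMN_2617005 (adjusted p = 0.0167) and -1.79 for ILMN_2677207 (adjusted p = 0.0384), both with a higher level in KO/KID than in WT/KID. In hearts, these 6 probes had differences of -0.21 to 0.14 and none passed. ILMN_1218079 (6.64 in KO/HT and 6.61 in WT/HT), ILMN_1252983 (6.66 and 6.57) and ILMN_1249362 (6.56 and 6.41) were near background in hearts. A fall in hearts could hardly be seen for them. Eif2s3y was detected in all 6 kidneys and in 1 heart, and Xist in 5 hearts and no kidney, and the part of sex in these interactions was not tested.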

How the results depend on the processing

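With all 12 arrays 14 probes passed an adjusted p under 0.05. The count was 21 with the neqc correction (11 rose and 10 fell), 4 without quantile normalization, 3 with only the hearts in the fit, whether or not they were normalized without the kidneys, 9 with array weights, 29 with trend and robust moderation, and 4 to 138 when 1 heart was left out. The 75 probes at 1.5-fold became 231 with neqc, 41 with the authors' values, 44 with only the hearts normalized together, and 52 to 154 when 1 heart was left out. The 12 interaction probes became 6 with neqc, 0 without quantile normalization, 4 with the authors' values, 20 with detection in any of the 12 arrays, 2 with detection in at least 3 hearts, and 1 to 21 when 1 heart was left out. That 0 is limma's count after adjustment (lowest adjusted p 0.0641), with 2129 probes at an unadjusted p under 0.05 against 1431 with quantile normalization. The interaction could not be fitted with hearts alone.

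With the replicate number as a replicate block 8 probes passed, and 3 with the block and only the hearts, while the interaction gave 9. With the block, Spon2 (adjusted p = 0.0644), Nmral1 and Trim56 (0.0759 each), Herc1 (0.0813), Strip2 (0.0925) and Phlda1 (0.119) did not pass. Same-numbered hearts deviated from their group means with correlations of 0.112, -0.0544 and 0.168, and hearts of different number with -0.172 to 0.101. With 3 hearts per group these values cannot decide whether the numbers pair the hearts. Differences were also followed for the called probes and the genes whose difference the text gives, counted once per probe and alternative. None of these cases changed direction, 95 lost a call and 22 gained one. Part of these genes were chosen for large differences, so the count does not speak for the other genes. The array weights were 0.502, 0.851 and 0.326 in KO/HT and 0.83, 0.952 and 1.15 in WT/HT. The signal gives no count of molecules, so dim probes such as Myl7 are limited by background. The median of the clock list was 0.075 with no filter on detection.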
